A study of Mus musculus with 24 samples.

Results

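Expression of 9 genes for ion, water, lactate and glucose transport by the retinal pigment epithelium (RPE) was followed in mice with and without removal of Bmal1 from the RPE, at 4 times of day. The genes were Best1, Kcnj13, Clcn2, Aqp1, Slc16a1, Slc16a8, Bsg, Slc2a1 and Atp1b1, and each was found by its symbol in the mouse GENCODE annotation. They make up 9 of 53700 rows of the count table, and all 9 were among the 24965 genes that passed the filter on low counts. RPE Bmal1 KO mice and RPE Bmal1 WT mice both carried Bmal1 fl/fl together with the RPE-cre transgenes, a VMD2-promoter rtTA and a tetracycline-operator cre. VMD2 is an older name of the gene of bestrophin, and doxycycline switches on the cre. KO mice ate doxycycline diet from postnatal day 60 to 74, and WT mice ate control diet, according to the methods of the study. In the sample records, however, doxycycline food is listed for all samples, and the count table labels its columns by diet, so the genotype of each library rests on those methods. All mice were C57BL/6, 12 to 16 weeks old, of both sexes, and were kept in 12 h light and 12 h dark. Each of the 8 groups (KO and then WT at ZT1, ZT7, ZT13 and ZT19, in h after lights on) held 3 libraries, and each library came from 2 RPE isolates of 1 mouse. Cre was active in most but not all RPE cells and in a few cells of the plexiform layers, so the KO tissue was a mosaic. The models held no term for sex.

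The RPE is the pigmented sheet between the photoreceptors and the choroid. It pumps sodium and moves potassium, chloride and water out of the subretinal space, it passes glucose from the choroidal blood to the photoreceptors, and it clears the lactate that the photoreceptors make. Sodium pumps and a potassium channel sit in the apical membrane, chloride channels in the basolateral membrane, and lactate carriers in both, where basigin helps to bring them to the surface. BMAL1 is a clock transcription factor that binds, together with CLOCK, to the E-box CACGTG.

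The E-box was searched in the RefSeq promoter windows of the genes (assembly GRCm38.p6), because the KO removes a factor that binds it. TAATCC, the core bound by the photoreceptor and RPE homeodomain factors CRX and OTX2, was searched on both strands. A promoter was matched for 8 of the 9 genes, all but Bsg. CACGTG reads the same on both strands and occurred in Slc16a1 alone among the 8, against 7.15% of 32851 promoters. TAATCC occurred in Best1 alone among the 8, against 7.06% of all promoters. The motifs can share an end base, but no promoter of the 8 held both. Below are the 150 bases that hold each motif, with the motif in capitals. The Slc16a1 stretch is chr3:104638414-104638563, plus strand, and its motif starts 199 bases before the gene's start. The Best1 stretch is chr19:10001734-10001883, minus strand, and its motif starts 226 bases before the start.
Slc16a1: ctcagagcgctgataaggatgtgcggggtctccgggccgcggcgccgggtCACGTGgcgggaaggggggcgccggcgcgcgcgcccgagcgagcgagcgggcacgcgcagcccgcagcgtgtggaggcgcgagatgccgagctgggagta
Best1: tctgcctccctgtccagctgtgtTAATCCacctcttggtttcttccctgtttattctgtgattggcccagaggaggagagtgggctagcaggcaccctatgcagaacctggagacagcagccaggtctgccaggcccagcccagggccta

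The tissue was the posterior eye after removal of the neural retina, from which the RPE was freed by brief sonication. All 19 RPE markers were detected in every library, and Rpe65, the isomerase of the visual cycle, ranged from 92.8 to 282 CPM (counts scaled to a common library size) in KO libraries and from 38.3 to 201 CPM in WT libraries. The libraries also held RNA of other cells. Rod markers summed to between 866 and 15533 CPM in KO libraries and between 957 and 14520.2 CPM in WT libraries. At an unadjusted p under 0.05, 16 of 17 were higher in KO over all times, against 3.61% of all genes. Their median log2 difference was 1.04. Skeletal muscle markers summed to between 9307 and 45089.5 CPM in KO and between 9011 and 62522 CPM in WT. All 13 had log2 differences below 0 (median -0.64), against 58.5% of all genes. No marker of either list passed the adjusted test. Lens and cornea markers summed to a median of 7453 CPM in KO and 8273 CPM in WT, against 4788 and 4740 CPM for the RPE markers. In the lens and cornea list, Krt5 had medians of 4122 CPM in KO and 4326 CPM in WT. Krt12 had 3010 and 3198 CPM. The part of corneal RNA in the levels of the transport genes was not tested. Library totals ran from 2069527 to 10572612 counts. In 5 libraries (replicate 1 of KO ZT1, KO ZT7, KO ZT13, WT ZT7 and WT ZT19), olfactory and vomeronasal receptor genes summed to between 714 and 3593 CPM, against 83.6 to 366 CPM in the other 19. These 5, called receptor-rich here, were also the shallowest, with at most 4363712 counts. Mitochondrially encoded transcripts took between 3.86 and 41.7% of counts, with the highest share in WT ZT7 replicate 1. All 4 tested of 7 were lower in KO over all times at an unadjusted p under 0.05, against 2.73% of all genes. Their median log2 difference was -0.93, and none passed the adjusted test. Arntl, the gene of BMAL1, was at 18.7 to 88.6 CPM in KO and 9.80 to 77.9 CPM in WT, but counts of the whole gene do not test the loss of the floxed exon. In bulk tissue, fewer cells of a type and less RNA per cell cannot be told apart.

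The transport genes differed widely in level. Ordered by median level in CPM per kilobase of exon over the 24 libraries, they were Aqp1 (124), Bsg (88.2), Kcnj13 (59.4), Slc2a1 (56.2), Atp1b1 (32.3), Slc16a1 (25.5), Slc16a8 (16.1), Clcn2 (3.50) and Best1 (0.720). Neighbours in this order mostly overlapped. Kcnj13 stood above Slc2a1 in 15 of 24 libraries, Slc2a1 above Atp1b1 in 17, Aqp1 above Bsg in 18, Atp1b1 above Slc16a1 in 19, Bsg above Kcnj13 in 20, Slc16a1 above Slc16a8 in 22 and Clcn2 above Best1 in 23. Only Slc16a8 and Clcn2 had ranges that did not overlap. Best1, the bestrophin gene whose promoter drives the cre system, was far below the rest, with 4 to 30 counts a library, so its values carry large counting error. By CPM, Aqp1 lay at the 99.0th percentile of the 22381 genes at a mean of at least 1 CPM, and Best1 at the 16.4th.

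**Figure D1:**
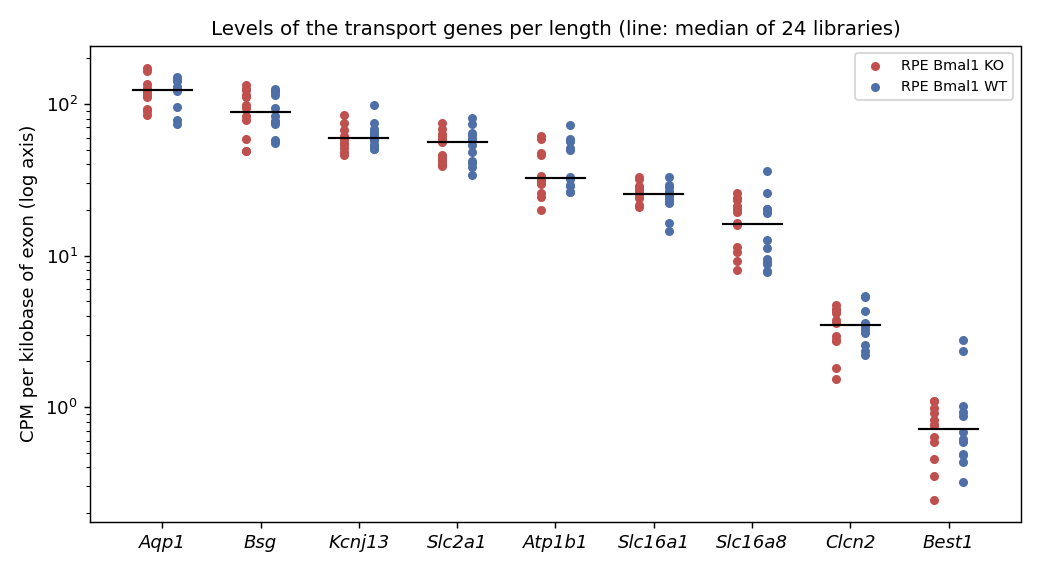
Levels of the 9 transport genes in CPM per kilobase of exon (log axis), 1 point per library, KO at the left and WT at the right of each gene, with a line at the median of 24 libraries. The genes descend from Aqp1 at a median of 124 to Best1 at 0.720, and KO and WT points overlap for every gene.

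Exons of some genes overlap a gene on the other strand, and whether strand was used in counting is not given in the sources used here. The share of exon bases so overlapped was 49.1% for Kcnj13 (Gigyf2), 18.7% for Atp1b1 (Nme7), 2.99% for Slc2a1 and 2.77% for Clcn2, and 0.0% for the other 5. If strand was not used, some Kcnj13 and Atp1b1 counts could belong to those neighbours.

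Whether loss of Bmal1 moved these genes was asked first over all times of day. None of the 9 passed (0 of 9) in edgeR's quasi-likelihood test with Benjamini-Hochberg adjustment over all genes, averaged over the 4 time points, and the background was 0.0% of 24965 genes. At an unadjusted p under 0.05 the count was also 0 of 9, against 6.34% of all genes, 3.61% higher and 2.73% lower in KO. DESeq2 and limma-trend called 0 of 9 as well. The averaged log2 differences were above 0 for 3 genes and below 0 for 6, against 41.5% above and 58.5% below over all genes. Their median was -0.02, and that of all genes was -0.04. These directions depend on the scaling, since the mean log2 TMM factor was 0.23 higher in KO than in WT, and with library size scaling 7 genes were above 0 and 2 below.

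By time point, 0 of 9 genes passed the adjusted edgeR test at ZT1, ZT7, ZT13 or ZT19, where the background was 0.0% of genes at each. No transport gene reached an unadjusted p under 0.05 at any time either, and DESeq2 and limma-trend called 0 of 9 at each. The shares of all genes that did were 9.99% at ZT1 (6.05% higher and 3.94% lower in KO), 4.32% at ZT7, 0.609% at ZT13 and 2.36% at ZT19. A different measure is whether the 3 KO and the 3 WT libraries overlap. Of 36 gene-by-time comparisons, they did so in all but 1, Best1 at ZT13. Among all genes, KO and WT did not overlap for 20.8% at ZT1, 7.42% at ZT7, 3.71% at ZT13 (2.04% with KO above WT) and 5.17% at ZT19.

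**Figure D2:**
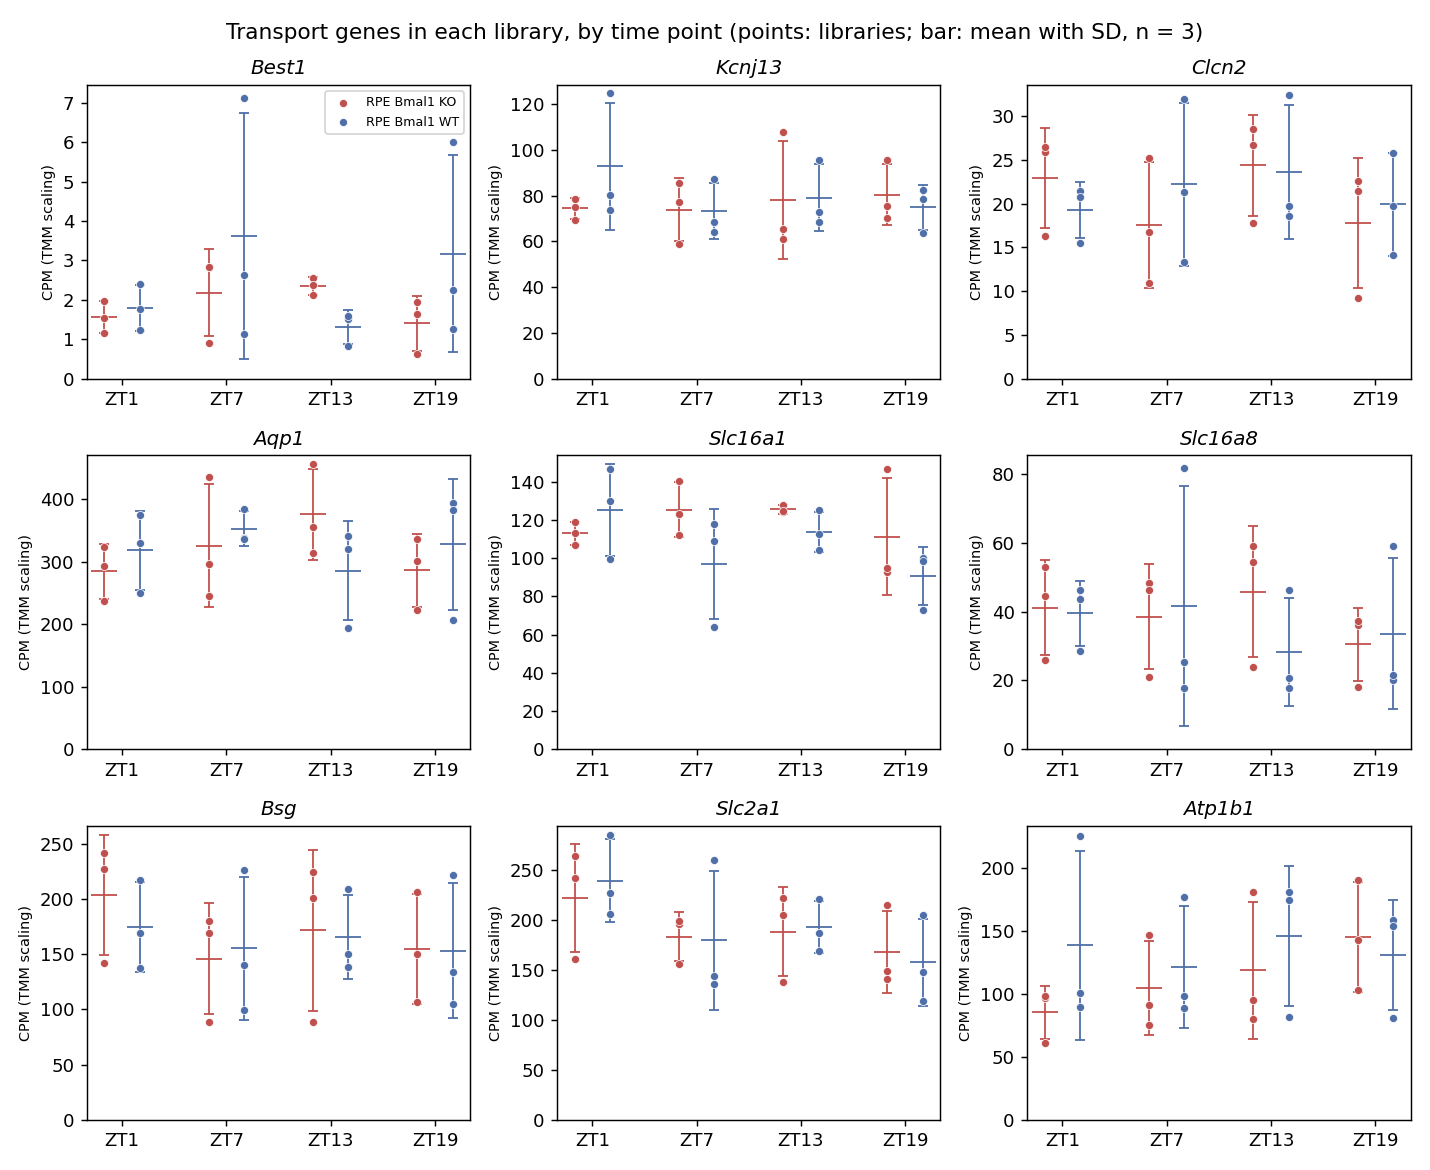
CPM of each transport gene (y axis) in each library at ZT1, ZT7, ZT13 and ZT19 (x axis), KO left of WT, with the mean and SD of 3 libraries. KO and WT points overlap in every pair except Best1 at ZT13, where KO lies between 2.12 and 2.56 CPM and WT between 0.824 and 1.59 CPM.

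The chloride channel genes come first. Best1, which encodes a calcium-activated chloride channel of the basolateral RPE membrane and is mutated in Best vitelliform dystrophy, averaged 1.87 ± 0.724 CPM in KO and 2.48 ± 2.00 CPM in WT (SD, n = 12 each). At ZT13 it had 2.12, 2.56 and 2.37 CPM in KO, against 0.824, 1.52 and 1.59 CPM in WT. The KO libraries all lay above the WT libraries there, but the log2 difference of 0.83 (SE 0.61) did not pass (edgeR adjusted p = 1.00, with 95% bounds of 0.740 to 4.25-fold). At ZT19 it had 0.628, 1.63 and 1.95 CPM in KO, against 6.02, 2.24 and 1.27 CPM in WT. That spread is mostly WT replicate 1, a receptor-rich library, and the log2 difference of -1.05 (SE 0.60, edgeR adjusted p = 1.00) was -0.24 without it. Over all times the log2 difference of Best1 was -0.25 (95% interval -0.89 to 0.40), and 0.02 without the 5 receptor-rich libraries. Best1 ran from 1.98 to 7.12 CPM in these 5 and from 0.628 to 2.82 CPM in the other 19.

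Clcn2, a voltage-gated chloride channel whose loss in mice is followed by degeneration of the retina, averaged 20.7 ± 6.42 CPM in KO and 21.3 ± 6.15 CPM in WT (SD, n = 12 each). Its lowest library was KO ZT19 replicate 1 at 9.26 CPM and its highest WT ZT13 replicate 3 at 32.4 CPM. The averaged log2 difference was -0.05 (95% interval -0.43 to 0.33), so changes outside 0.744 to 1.25-fold lie beyond the interval.

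Kcnj13, the inwardly rectifying potassium channel of the apical RPE membrane, was among the steadiest. It averaged 76.6 ± 14.1 CPM in KO and 80.0 ± 17.0 CPM in WT (SD, n = 12 each), with ranges of 58.6 to 108 CPM in KO and 63.7 to 125 CPM in WT. The averaged log2 difference was -0.06 (SE 0.12, 95% interval -0.31 to 0.19, or 0.805 to 1.14-fold). Within groups its log2 SD was 0.29, against a median of 0.45 over 22381 genes at a mean of at least 1 CPM.

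Aqp1, a water channel that many eye tissues express, was the most abundant of the 9 by both scales. It averaged 318 ± 72.3 CPM in KO and 321 ± 68.1 CPM in WT (SD, n = 12 each). The time points went both ways. At ZT13 it had 457, 315 and 356 CPM in KO, against 342, 195 and 321 CPM in WT. The groups overlapped, and the log2 difference of 0.40 (SE 0.28, edgeR adjusted p = 1.00) was 0.21 without WT replicate 2, the lowest of the 24 libraries, and 0.23 without the receptor-rich libraries. Over all times the log2 difference was -0.02 (95% interval -0.31 to 0.27).

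Atp1b1, the beta subunit of the sodium pump, was the most negative of the averaged differences, at a log2 of -0.27 (SE 0.21, 95% interval -0.70 to 0.16, edgeR adjusted p = 0.884). It averaged 114 ± 41.7 CPM in KO and 134 ± 49.6 CPM in WT (SD, n = 12 each). At ZT1 it had 61.3, 96.7 and 98.4 CPM in KO, against 225, 101 and 90.0 CPM in WT. A single WT library was high there, and the log2 difference of -0.70 (SE 0.42, edgeR adjusted p = 0.605) was -0.16 without it and -0.51 without the receptor-rich libraries. That library, WT ZT1 replicate 1, also had the highest skeletal muscle signal of all 24, a mean log2 CPM of 9.56 over the list. The part of muscle RNA in the Atp1b1 difference was not tested.

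The lactate carriers did not separate by genotype. Slc16a1 encodes MCT1, the lactate and proton carrier of the apical RPE membrane, and it had the most positive averaged difference of the 9, a log2 of 0.16 (SE 0.11, 95% interval -0.07 to 0.39, edgeR adjusted p = 0.859). It averaged 119 ± 16.3 CPM in KO and 107 ± 22.9 CPM in WT (SD, n = 12 each). At ZT7 it had 112, 123 and 141 CPM in KO, against 64.1, 109 and 118 CPM in WT. The low WT library was replicate 1, the receptor-rich library with the highest mitochondrial share, and the log2 difference of 0.36 (SE 0.23, edgeR adjusted p = 0.929) was 0.14 without it. Without all receptor-rich libraries it was 0.22 at ZT7, and 0.09 over all times.

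Slc16a8, which encodes MCT3, the basolateral lactate carrier of the RPE, averaged 39.0 ± 14.1 CPM in KO and 35.7 ± 20.005 CPM in WT (SD, n = 12 each). It varied widely between mice of the same group, with a within-group log2 SD of 0.73. At ZT13 it had 23.99, 59.2 and 54.4 CPM in KO, against 20.6, 17.9 and 46.3 CPM in WT. The groups overlapped through the low KO and the high WT library. The log2 difference there was 0.70 (SE 0.53, edgeR adjusted p = 1.00), and it was 1.26 without WT replicate 3 and 1.00 without the receptor-rich libraries, with no call in either. Over all times it was 0.12 (95% interval -0.43 to 0.66, or 0.742 to 1.58-fold).

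Bsg, the basigin that partners MCT1 and MCT3, averaged 169 ± 54.2 CPM in KO and 162 ± 45.6 CPM in WT (SD, n = 12 each), a log2 difference of 0.05 (95% interval -0.35 to 0.44, or 0.787 to 1.36-fold). Its values ran from 88.7 to 242 CPM in KO and from 99.7 to 226 CPM in WT. Slc2a1, which encodes GLUT1, the glucose carrier of both RPE membranes, averaged 190.2 ± 41.6 CPM in KO and 192 ± 51.3 CPM in WT (SD, n = 12 each). Its log2 difference of -0.01 (95% interval -0.29 to 0.28, or 0.816 to 1.22-fold) was the closest to 0 of the 9.

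**Figure D3:**
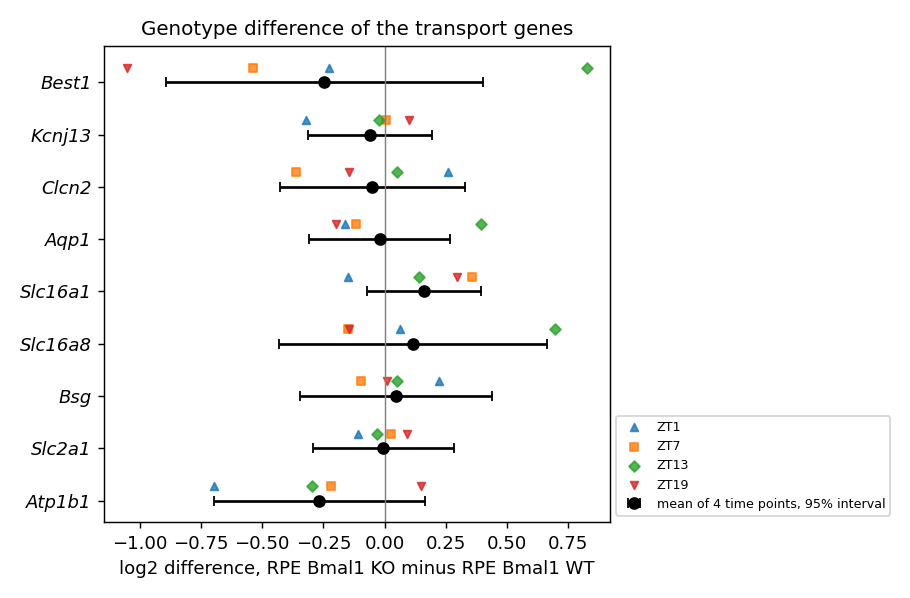
Log2 difference, KO minus WT (x axis), of each transport gene (rows). Black points are the mean of 4 time points with the 95% interval, and coloured marks are the single times; every interval crosses 0, from -0.27 for Atp1b1 to 0.16 for Slc16a1.

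Whether the genes varied with time of day was asked within each genotype. In KO mice 0 of 9 passed the adjusted edgeR test over the 4 times (background 0.00801%), and 0 of 9 had an unadjusted p under 0.05 (background 2.06%). In WT mice the counts were also 0 of 9 (background 0.0%) and 0 of 9 (2.47%). With both genotypes in an additive model they were 0 of 9 (0.0361%) and 0 of 9 (3.11%). The test of whether the time course differed between genotypes called 0 of 9 (0.0%), and 0 of 9 at an unadjusted p under 0.05 (2.06%). DESeq2 and limma-trend called 0 of 9 in each. The same additive test called 6 of 19 clock genes. With replicate number as a block, the edgeR test over time in KO still called 0 of 9, but 4 of 9 had an unadjusted p under 0.05. Over all genes, 2205 of 24965 had such a p in KO with the block. For the transport genes it was 0 of 9 in WT and 1 of 9 over both genotypes.

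Of the 9, Slc2a1 had the smallest p over time in both genotypes together (edgeR adjusted p = 1.00). It was highest at ZT1 and lowest at ZT19 in each genotype. In KO it had 161, 263 and 241 CPM at ZT1, with 155, 196 and 198 at ZT7, 137, 222 and 205 at ZT13, then 140.3, 215 and 148 at ZT19. In WT it had 227, 285 and 206 CPM at ZT1, with 135, 144 and 259 at ZT7, 187, 169 and 220.4 at ZT13, then 119, 148 and 205 at ZT19. The ZT1 and ZT19 libraries overlapped in KO (a 1.32-fold difference of the means) but not in WT (1.52-fold). Within KO, within WT and by genotype and time, the edgeR adjusted p was 1.00 each.

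The KO means of Atp1b1 were 85.5 ± 20.9 at ZT1, 105 ± 37.4 at ZT7, 119 ± 54.4 at ZT13 and 145 ± 43.5 CPM at ZT19 (SD, n = 3 each). The KO libraries at ZT19 (143, 103 and 190.3 CPM) all lay above those at ZT1 (61.3, 96.7 and 98.4 CPM), a 1.70-fold difference of the means. The test over time in KO was not passed (edgeR adjusted p = 1.00). In WT the means were 139 ± 75.3, 121 ± 48.2, 146 ± 55.8 and 131 ± 43.7 CPM at ZT1, ZT7, ZT13 and ZT19 (SD, n = 3 each), and the edgeR adjusted p over time was 1.00. The genotype-by-time test did not separate the 2 courses (edgeR adjusted p = 1.00).

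Best1 in KO had its highest mean at ZT13 and its lowest at ZT19, 1.67-fold apart, with libraries that did not overlap, but its test over time in KO was not passed (edgeR adjusted p = 1.00). Its WT course peaked at ZT7 and was 2.76-fold from highest to lowest, which rests on the 7.12 CPM of WT ZT7 replicate 1. Highest and lowest time points did not overlap for Best1 and Atp1b1 in KO (2 of 9, against 20.2% of all genes) and for Slc2a1 in WT (1 of 9, against 20.1%). Across the 9 genes the highest mean was 1.09 (Kcnj13) to 1.70 (Atp1b1) times the lowest in KO, and 1.14 (Bsg) to 2.76 (Best1) times in WT. The median gene at a mean of at least 1 CPM gave 1.36 in KO and 1.43 in WT.

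Among themselves, Slc16a8, Bsg and Slc2a1 moved together across libraries. All 36 pairs were compared by the correlation of log2 CPM over the 24 libraries, with two-sided permutation tests of 100000 resamples and Benjamini-Hochberg adjustment over the pairs, and 7 passed. Slc16a8 and Bsg had r = 0.85 (permutation p = 1e-05, the smallest that the resamples can give, adjusted 0.00018) and rho = 0.82 (permutation p = 1e-05, adjusted 0.00018). Bsg and Slc2a1 had r = 0.84 (permutation p = 2e-05, adjusted 0.00024) and rho = 0.85 (p = 1e-05, adjusted 0.00018). Slc16a8 and Slc2a1 had r = 0.80 (permutation p = 1e-05, adjusted 0.00018) and rho = 0.76 (p = 4e-05, adjusted 0.00036). These genes encode the basolateral lactate carrier, its surface partner and the glucose carrier. The share of all gene pairs with such r was not counted, so the relation is not shown to be particular to carriers. Among 12533 genes, the closest to Bsg had r = 0.93, to Slc16a8 0.91 and to Slc2a1 0.88. The r values within the 8 groups, after each group mean was taken off, were 0.92, 0.89 and 0.90 for the 3 pairs in that order. Without the 2 libraries farthest from the median they were 0.84, 0.85 and 0.76, and without the receptor-rich libraries 0.85, 0.78 and 0.73. In KO, replicate 1 was the lowest library at 4 of 4 time points for Slc16a8, Bsg, Slc2a1 and Clcn2, a pattern that the permutation over libraries leaves in. With the means of replicate numbers in each genotype also taken off (an alternative added after seeing the data), r was 0.85, 0.77 and 0.78 over both genotypes, but 0.28, 0.60 and -0.33 within KO, against 0.92, 0.80 and 0.91 within WT. The Slc16a8 relations thus did not hold within KO once replicate numbers were taken off, and 3 of the 4 KO replicate 1 libraries were receptor-rich. Slc16a1, the other lactate carrier, had r = 0.34 with Slc16a8, 0.29 with Bsg and 0.44 with Slc2a1. None of these passed (permutation p = 0.0977, 0.173 and 0.0294, adjusted 0.321, 0.367 and 0.118). With group and replicate number means taken off they were 0.72, 0.79 and 0.63 over both genotypes. Within KO they were then 0.30, 0.49 and 0.28, against 0.91, 0.94 and 0.80 within WT.

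Clcn2 joined Slc16a8, Bsg and Slc2a1. Its r was 0.73 with Bsg (permutation p = 8e-05, adjusted 0.00072, rho 0.75 with p = 2e-05 and adjusted 0.00024), 0.76 within groups and 0.64 without the 2 farthest libraries. With Slc16a8 it was 0.70 (permutation p = 0.00017, adjusted 0.00122, rho 0.66 with p = 0.00061 and adjusted 0.00439), 0.79 within groups and 0.65 without the 2 farthest. With Slc2a1 it was 0.55 (permutation p = 0.00574, adjusted 0.0295, rho 0.58 with p = 0.00387 and adjusted 0.0232), 0.65 within groups and 0.49 without the 2 farthest. With replicate number means taken off as well, these 3 values were 0.43, 0.61 and 0.34 over both genotypes and -0.01, -0.10 and -0.05 within KO, against 0.52, 0.69 and 0.43 within WT. The last pair that passed, Best1 and Slc16a1, had r = -0.58 (permutation p = 0.00374, adjusted 0.0224) but rho = -0.20 (p = 0.337, adjusted 0.599). It rests on a few libraries, since r was -0.07 without the 2 farthest and -0.07 without the receptor-rich ones.

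**Figure D4:**
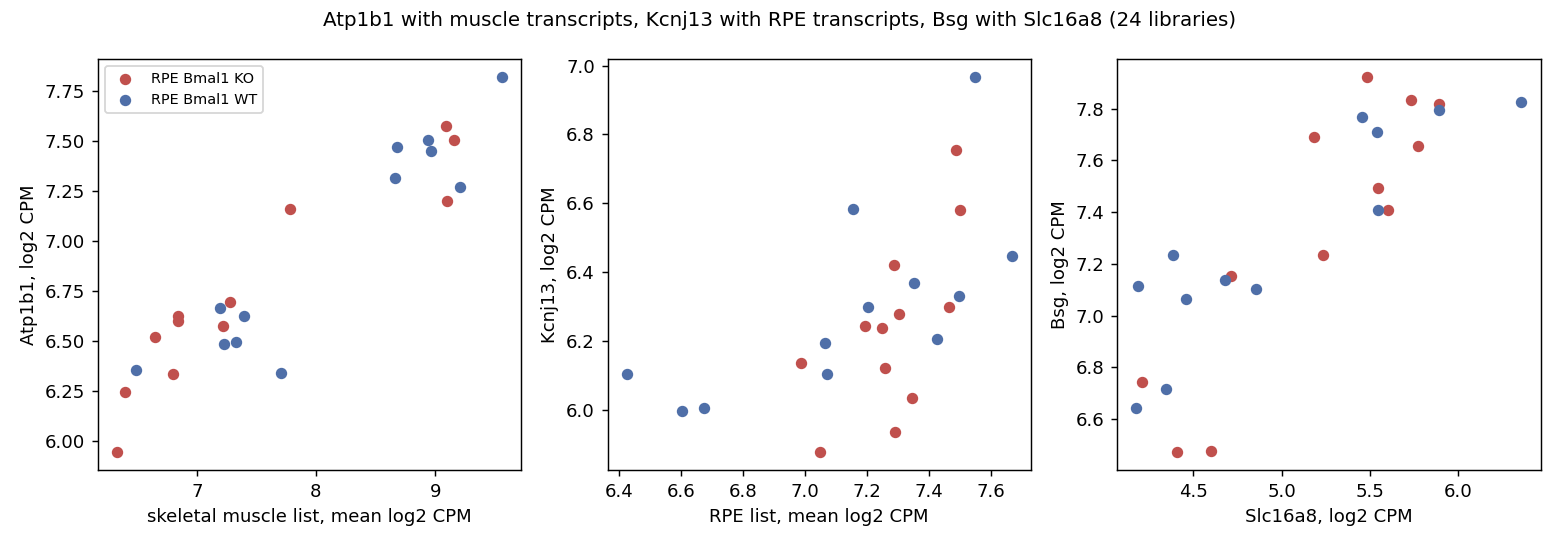
Scatter plots over 24 libraries, KO and WT in separate colours, of Atp1b1 against the skeletal muscle list, Kcnj13 against the RPE list and Bsg against Slc16a8, all in log2 CPM (list values are means over the list). The muscle list falls into a low set of 15 and a high set of 9 libraries, split at its largest gap. Atp1b1 is higher in all of the high set, but the share of all genes that also separate was not counted. Neither relation within a set passed the adjusted threshold. Kcnj13 rises with the RPE list (r = 0.58), and Bsg and Slc16a8 rise together (r = 0.85).

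Depth moved with these genes too. Slc16a8 ran from 17.8 to 26.0 CPM in the 5 receptor-rich, shallow libraries and from 17.9 to 81.7 CPM in the other 19. Bsg ran from 88.7 to 142 CPM and from 107 to 242 CPM in the same sets, and Slc2a1 from 119 to 161 CPM and from 140.3 to 285 CPM. The receptor-rich libraries were thus at the low end for all 3, and the relations above are as given without them.

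Levels in each library were then set beside the RPE and rod marker lists, to see which transport genes tracked the amount of RPE RNA. Of 18 relations (adjusted over the 18), 4 passed, but 0 did without the receptor-rich libraries, 1 without WT ZT7 replicate 1 and 12 with library size scaling. Kcnj13 with the RPE list had r = 0.58 (permutation p = 0.00346, adjusted 0.0208) and rho = 0.66 (p = 0.00057), with r = 0.59 without the 2 farthest libraries, 0.59 within groups and 0.57 without the receptor-rich ones, but 0.20 with replicate number means also taken off. Slc2a1 with the RPE list had r = 0.59 (permutation p = 0.00218, adjusted 0.0196) and rho = 0.49 (p = 0.0168), with 0.41 without the 2 farthest, 0.53 within groups and 0.68 with replicate number means also taken off. Slc16a1 with the RPE list had r = 0.66 (permutation p = 0.00088, adjusted 0.0158) and rho = 0.43 (p = 0.036), but r was 0.26 without the 2 farthest and 0.24 without the receptor-rich libraries, so it rests on those. Bsg with the rod list had r = 0.56 (permutation p = 0.00513, adjusted 0.0231) and rho = 0.57 (p = 0.00501), with 0.59 without the 2 farthest, 0.63 within groups, 0.38 without the receptor-rich libraries and 0.27 with replicate number means also taken off. The other genes had r with the RPE list of 0.48 (Slc16a8), 0.36 (Bsg), 0.22 (Aqp1), 0.01 (Clcn2), -0.03 (Atp1b1) and -0.40 (Best1), none past the threshold. That of Best1 was 0.22 without the receptor-rich libraries and 0.24 without the 2 farthest, and that of Clcn2 was 0.47 with library size scaling.

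A wider set of 13 lists was chosen after these values were seen, and made 117 relations, of which 20 had an adjusted p under 0.05 for Pearson's r and 14 of these also for Spearman's rho. Bsg, Slc2a1, Slc16a8 and Clcn2 followed the Muller glia list, part of which (Rlbp1, Glul) is also expressed elsewhere in the eye. Bsg had r = 0.77 with it (permutation p = 2e-05, adjusted 0.00234, rho 0.83 with p = 1e-05), 0.88 without the 2 farthest libraries and 0.79 within groups. Slc2a1 had 0.68 (permutation p = 0.00023, adjusted 0.00877, rho 0.76 with p = 5e-05), 0.82 without the 2 farthest and 0.78 within groups. Slc16a8 had 0.65 (permutation p = 0.00075, adjusted 0.0156, rho 0.66 with p = 0.00063), 0.71 and 0.72 under the same changes. Clcn2 had 0.54 (permutation p = 0.00601, adjusted 0.0391, rho 0.63 with p = 0.00126), 0.53 and 0.59. With replicate number means also taken off, r was 0.70, 0.76, 0.71 and 0.28 for these 4 genes in that order, and within KO 0.18, 0.58, -0.26 and -0.56, against 0.94, 0.86, 0.98 and 0.62 within WT. The same 3 carrier genes had negative r with the mitochondrially encoded list, -0.53 for Bsg, -0.55 for Slc16a8 and -0.53 for Slc2a1 (permutation p = 0.00657, 0.00451 and 0.00578, adjusted 0.0405, 0.0352 and 0.0391).

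Aqp1 differed from Bsg, Slc16a8 and Slc2a1. It rose with the list of choroidal and scleral fibroblasts (r = 0.61, permutation p = 0.00138, adjusted 0.0156, rho 0.59 with p = 0.00277), with 0.56 without the 2 farthest libraries and 0.64 within groups. Clcn2 had r = -0.61 with the same list (permutation p = 0.00147, adjusted 0.0156, rho -0.59 with p = 0.00318), -0.53 without the 2 farthest and -0.78 within groups. Best1 with macrophages (r = 0.65, permutation p = 0.00108, adjusted 0.0156) and Slc16a1 with macrophages (r = -0.71, permutation p = 0.0003, adjusted 0.00877) weakened to 0.37 and -0.38 without the receptor-rich libraries, and neither rho passed (adjusted 0.161 and 0.102).

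**Figure D5:**
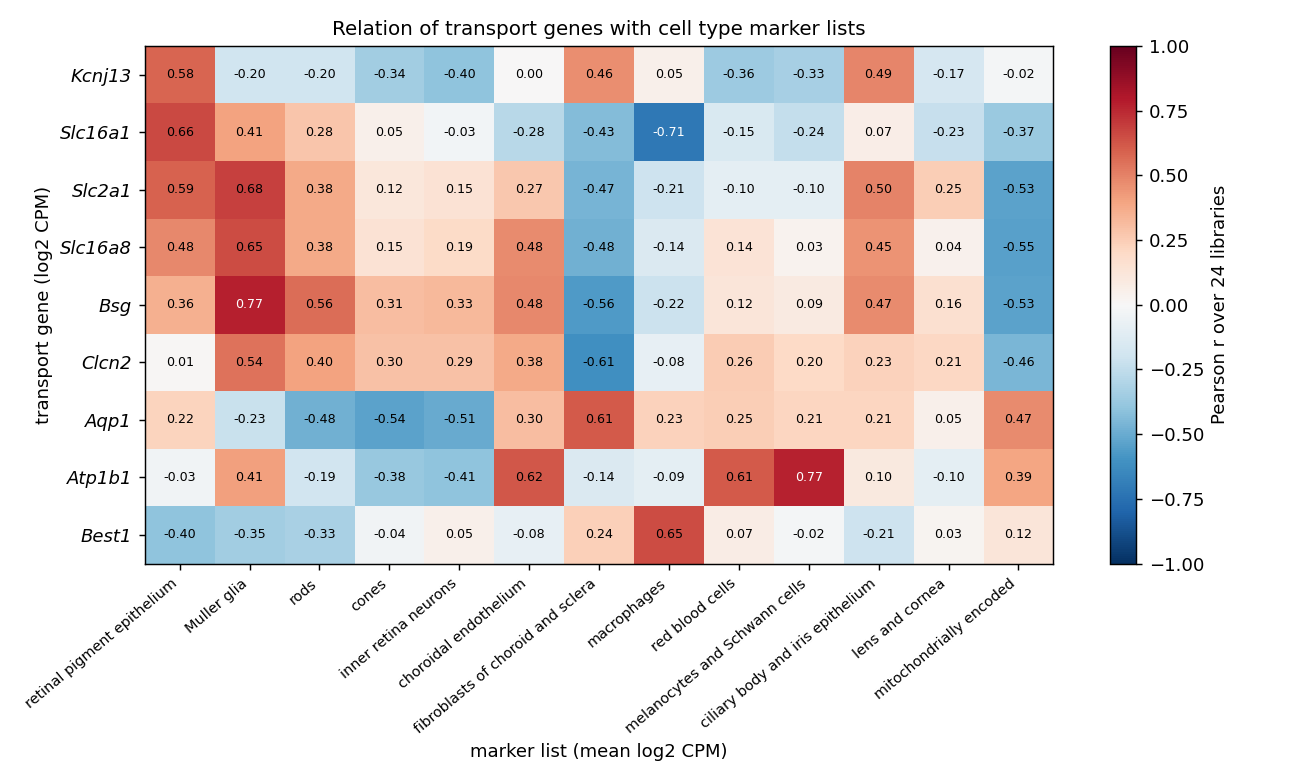
Pearson r over 24 libraries of each transport gene (rows, log2 CPM) with 13 marker lists (columns, mean log2 CPM), printed in each cell and coloured from blue (negative) to red (positive). Red cells under Muller glia run from Slc16a1 (0.41) to Bsg (0.77). Atp1b1 is red under melanocytes and Schwann cells (0.77). Under RPE, Atp1b1 (-0.03) and Clcn2 (0.01) are both near 0.

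Atp1b1, which nearly all cells express, followed lists other than that of the RPE. Its r with the RPE list was -0.03, near the 0.01 of Clcn2. With melanocytes and Schwann cells its r was 0.77 (permutation p = 5e-05, adjusted 0.00292, rho 0.73 with p = 0.00013). That r was 0.73 without the 2 farthest libraries and 0.78 within groups. With choroidal endothelium and with red blood cells it had r = 0.62 and r = 0.61 (permutation p = 0.00137 and 0.00146, adjusted 0.0156 each). The skeletal muscle list fell into separate sets of libraries, so no pooled r is given for it. The 9 libraries of the higher set (3 KO and 6 WT, list mean 8.66 to 9.56) had 147 to 225 CPM of Atp1b1, and the 15 of the lower set (9 KO and 6 WT, 6.33 to 7.79) had 61.3 to 143 CPM, with no overlap. The sets were split at the largest gap of the list mean (0.88), and the share of all genes that also separate between them was not counted. All 5 receptor-rich libraries were in the lower set. Within the lower set r was 0.68 (permutation p = 0.00416, adjusted 0.0749 over 18 relations) and within the higher set 0.49 (exact permutation p = 0.177, adjusted 0.637), neither past the adjusted threshold.

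Other transport genes of the same kinds were read from lists, none of which holds the 9 genes, and none of their genes passed the adjusted edgeR test averaged over time. At an unadjusted p under 0.05 (6.34% of all genes) 3 of 11 tested potassium channel genes differed. Kcne2, a channel subunit that is also in the cone marker list, had a log2 difference of 1.05 (SE 0.32), and Kcnj2, an inward rectifier abundant in muscle, had -0.70 (SE 0.29). These go with the higher rod signal and the lower muscle signal in KO, whose part was not tested. Of 18 chloride channel and anion exchanger genes 0 differed, and of 10 cotransporters and exchangers 1 (Slc4a7, a sodium bicarbonate cotransporter, at 0.51, SE 0.19). Carbonic anhydrases (0 of 4) and aquaporins (0 of 6) had none. The list medians ran from -0.14 (aquaporins) to 0.04 (carbonic anhydrases), against -0.04 over all genes.

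In the glucose list 3 of 9 were lower in KO at an unadjusted p under 0.05, with Txnip, which restrains glucose uptake, at -0.36 (SE 0.14) and Slc2a10 at -0.37 (SE 0.15). At ZT1, where 9.99% of all genes had such a p, it was 5 of 9, of which 2 were higher and 3 lower. Among them were Slc2a3, the glucose carrier of neurons, at 1.33 (SE 0.42) and Txnip at -0.92 (SE 0.29). At ZT1 17 of 17 rod markers were also higher in KO at an unadjusted p under 0.05, against 6.05% of all genes (median log2 difference of the markers 2.38). The part of retinal RNA in the ZT1 differences was not tested. Among 13 other solute transport genes 2 were higher at that threshold averaged over time, the calcium channel subunit Cacnb2 at 0.78 (SE 0.26) and the photoreceptor retinoid transporter Abca4 at 0.60 (SE 0.27). The other lists at ZT1 gave 3 of 11 potassium channel genes, 3 of the 13 other solute transport genes and none of the chloride, cotransporter, carbonic anhydrase, aquaporin or lactate genes. The adjusted edgeR p of every gene named from the lists averaged over time was 0.75 to 0.76. Over time of day these 9 lists had 0 calls in edgeR. At an unadjusted p under 0.05 there were 3 genes in KO (Best2, Txnip and Slc6a6) and 1 in WT (Slc5a1). The backgrounds at that threshold were 2.06% of all genes in KO and 2.47% in WT. The smallest p was that of the taurine transporter Slc6a6 over both genotypes (edgeR adjusted p = 0.678).

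The protein-coding genes whose pattern over the 24 libraries was most like each member were taken by Pearson r of log2 CPM among 12533 genes at a mean of at least 5 CPM, as a description. For Bsg they were Ap1b1 and Ep400 (r = 0.93 each), for Slc16a8 Sipa1l1 (0.91) and Klhl26 (0.90), for Slc2a1 Tspan10 (0.88) and Sipa1l3 (0.84), and for Clcn2 Dus1l (0.92) and Odf2 (0.90). For Kcnj13 they were Aldh1a3 (0.81) and Hpse (0.79), for Slc16a1 Arglu1 (0.83) and Rdh10 (0.82), and for Aqp1 Ctnnb1 (0.81) and Agtr1a (0.78). Rdh10, a retinol dehydrogenase, is in the RPE list. For Atp1b1 they were Atp5a1, of the mitochondrial ATP synthase, and Hspa9, a mitochondrial chaperone, at r = 0.97 each. Best1, near the limit of counting, was closest to Col13a1 (0.81) and Dnah10 (0.80).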

How the data were processed

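RNA of 24 libraries was prepared with a stranded total RNA kit after ribosomal depletion. The authors aligned reads to mm10 with Bowtie2 (2.3.4 per the sample records) and counted them per gene with HTSeq 0.9.1, and the deposited values are raw counts of 53700 Ensembl IDs, without normalization. Of these, 52093 matched GENCODE mouse release 21. A further 11 columns, with values in 30 rows, were not used. Counts were scaled by TMM, genes filtered by filterByExpr (minimum count 10, 8 groups), and tested with edgeR 4.0.16 (R 4.3.3), Benjamini-Hochberg threshold 0.05. CPM are TMM-scaled, and log2 CPM has a prior count of 2. Genotype was tested in a model of 8 group means, time within each genotype or with genotype as covariate. Alternatives were DESeq2 1.42.0, limma-trend 3.58.1, other scalings, no filter, covariates, a replicate block and left-out libraries. The edgeR steps were tested on simulated data. Named list genes were the 2 of smallest p per list, averaging 1 CPM or more. Single-gene results of the sodium pump and monocarboxylate lists are not reported here. The members and lists were chosen with earlier results of these data known. Intervals cover the spread between libraries.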

Additional observations from a re-analysis of the deposited data

How the results depend on the processing

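The count of 0 of 9 transport genes called held in all 9 tests under all 10 alternatives and without each of the 24 libraries. Of the 9 differences averaged over time, 7 changed sign under another alternative and 5 without a library; Slc16a1 and Atp1b1 kept theirs. The cause was not tested.

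With library size scaling, which moves all differences up by about 0.23 against TMM, the log2 differences were 0.15 (Kcnj13), 0.13 (Clcn2), 0.21 (Aqp1) and 0.19 (Slc2a1). Without the low-count filter they were 0.019 (Clcn2), 0.041 (Aqp1) and 0.056 (Slc2a1), and with the rod marker mean as covariate 0.14 (Aqp1), -0.28 (Slc16a8) and -0.31 (Bsg). Without the receptor-rich libraries they were 0.022 (Best1), 0.099 (Clcn2) and 0.031 (Slc2a1). Slc2a1 was at 0.0061 with DESeq2, 0.0067 with RLE scaling, 0.011 with TMM without mitochondrial and the 50 most abundant genes, and 0.0027 with limma-trend. Without single libraries the ranges were -0.087 to 0.047 (Aqp1), -0.010 to 0.16 (Bsg), -0.12 to 0.061 (Clcn2), -0.14 to 0.0076 (Kcnj13) and -0.046 to 0.11 (Slc2a1).

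Counts over all genes moved more. DESeq2 called 2 at ZT1, 4 at ZT7, 50 over time in KO, 24 in WT and 78 in both. No filter gave 118 at ZT1, 9 at ZT7, 1 averaged, 60 in KO, 795 in WT and 19 in both. Over time in KO, against 2, the count was 0 with library size scaling, 7 with either marker covariate and 24 without the receptor-rich libraries. In both genotypes, against 9, it was 14 with limma-trend, 14 with the rod covariate and 5 without the receptor-rich libraries. Without a library the counts ran from 0 to 321 averaged (321 without WT ZT13 replicate 2), 0 to 4 at ZT7, 0 to 24 in KO, 0 to 13 in WT and 8 to 61 in both. Of the marker relations 4 passed, against 12 with library size scaling, 0 without the receptor-rich libraries, 20 with 13 lists (chosen after seeing the data) and 1 to 6 without a library (1 without WT ZT7 replicate 1).

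The labels do not say that a replicate number marks a shared batch, and 45 of 84 same-number pairs correlated above 0.1, so samples were not treated as paired. With the replicate block the time test in KO called 46 genes, none a transport gene. There 4 transport genes had an unadjusted edgeR p under 0.05 (Slc16a8, Atp1b1, Bsg and Clcn2, with adjusted edgeR p of 0.429 to 0.547). Over all genes, 2205 of 24965 had such a p with the block, against 515 without it. In 19 of 24 libraries the best correlation was with the own number, and the median r was 0.165 for equal and -0.053 for other numbers, a hint of a shared factor that comes from the data.

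Depth limits Best1, at 4 to 30 counts a library, and 3 libraries a group limit each single time point.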
